A study of Capra hircus with 6 samples.

Results

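The Sonic hedgehog pathway was examined here through 9 genes, taken as the rows of the deposited count table whose symbol is that of the ligand SHH, the receptor PTCH1, the decoy receptor HHIP, the coreceptors BOC and CDON, the signal transducer SMO or the transcription factors GLI1, GLI2 and GLI3. All 9 were found among the 28907 rows, and all 9 passed the filter on low counts that kept 16756 genes. The table holds RNA sequencing counts of the medio-basal hypothalamus, where the median eminence and the arcuate nucleus lie. It was taken from adult Alpine goats (Capra hircus) in January/Follicular phase, the days of the ovarian cycle before ovulation, and in May/Anestrus, the season without cycles. In each group 2 libraries were sequenced, each an equimolar mix of RNA from goats of that condition, drawn from 5 follicular-phase and 8 anestrus goats. The number of goats behind a pool, and whether a goat entered both pools of its group, are not given in the labels, and season and ovarian state differ together between the groups. The 4 libraries held 14553821 to 25292678 counts, and the luteal-phase libraries of the series were not analysed here. The labels name no treatment or genetic change in any group.

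Hedgehog ligands are secreted proteins that act on neighbouring cells. When a ligand binds PTCH1, PTCH1 stops holding back SMO, and SMO at the primary cilium turns the GLI factors from repressors into activators of transcription. PTCH1, HHIP and GLI1 are themselves switched on by the pathway, so that responding cells make both a readout and a brake. SHH from the ventral midline patterns the hypothalamus and the pituitary in the vertebrate embryo, and in the adult mouse forebrain neurons make SHH while many of the cells that express GLI1 are astrocytes.

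The 9 genes were chosen by symbol, with the CPM (counts scaled to a library total of 1000000) of these follicular and anestrus pools already in view, so their values are a description of these 4 pools and carry no test of their own. The ligand and its decoy receptor differed in opposite directions: SHH was 2.34-fold lower and HHIP 1.77-fold higher in the follicular pools than in the anestrus pools. CDON was lower in both follicular pools. PTCH1 and GLI1, the usual transcriptional readouts of the pathway, were each 1.07-fold apart between groups. Their log2 fold changes were 0.10 ± 0.16 and 0.10 ± 0.41 (standard error). HHIP, which was higher, is also switched on by the pathway. In edgeR's quasi-likelihood test over all genes, 1 of the 9, SHH, was called at an adjusted p under 0.05, where 0.203% of the 16756 genes were called, 0.0119% higher and 0.191% lower in the follicular phase. That split, 2 genes higher and 32 lower, was 127 and 173 without a count filter, 43 and 100 in the DESeq2 Wald test, and 541 and 269 without anestrus pool 1. The groups did not overlap for 5 of the 9 genes, beside 38.3% of all genes tested. Of these 5, 2 were higher in the follicular phase (17.6% of all genes) and 3 lower (20.7% of all genes), and nothing is read from these counts because the comparison helped to choose the genes.

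SHH, the secreted ligand (gene 102170201), was counted 648 and 400 times in follicular pools 1 and 2, against 836 and 1004 times in the 2 anestrus pools. Relative to the scaled library totals, the follicular pools held 25.5 and 23.2 CPM and the anestrus pools 58.6 and 55.7 CPM. Both follicular pools thus lay below both anestrus pools, and within a group the higher pool was 1.10-fold (follicular) and 1.05-fold (anestrus) above the lower one. SHH averaged 24.4 ± 1.60 CPM in the follicular phase, against 57.2 ± 2.02 CPM in anestrus (SD, n = 2 pools each). The log2 fold change, follicular minus anestrus, was -1.23 ± 0.19 (standard error). By the size of its log2 fold change SHH was number 307 of the genes tested. It was no longer among the called genes when follicular pool 1 or follicular pool 2 was left out, at log2 fold changes of -1.28 and -1.16.

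HHIP, the membrane-bound decoy that binds Hedgehog ligands and keeps them from PTCH1, showed the opposite order. It was counted 791 and 442 times in follicular pools 1 and 2, against 226 and 292 times in the 2 anestrus pools. The follicular pools held 31.1 and 25.7 CPM, against 15.8 and 16.2 CPM in the anestrus pools. Both follicular pools lay above both anestrus pools, and the follicular pools differed from each other by 1.21-fold. The mean was 28.4 ± 3.85 CPM in the follicular phase, against 16.0 ± 0.26 CPM in anestrus (SD, n = 2 pools each), a log2 fold change of 0.83 ± 0.23. HHIP was not among the called genes with all pools or under any of the 12 alternatives, and its log2 fold change stayed between 0.70 and 0.96 over them.

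**Figure D1:**
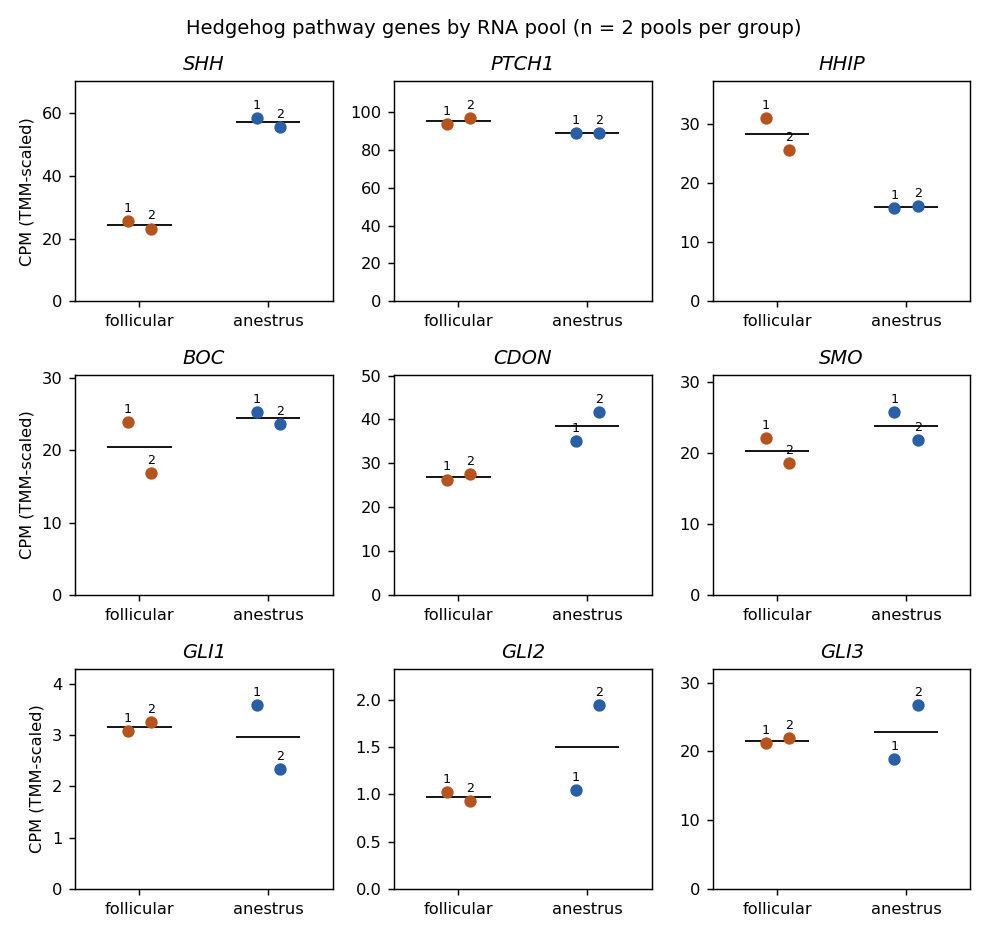
CPM of each of the 9 genes (vertical axes, each from 0) in follicular pools and anestrus pools (horizontal axis); points are pools, numbered, and the black line is the mean of 2 pools. SHH lies at 25.5 and 23.2 CPM in the follicular pools and at 58.6 and 55.7 CPM in the anestrus pools, and HHIP shows the opposite order.

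PTCH1, the receptor that restrains SMO and is itself induced by the pathway, had 93.6 and 96.9 CPM in follicular and 88.7 and 88.9 CPM in anestrus pools. The groups did not overlap, but their means, 95.2 ± 2.38 CPM in the follicular phase against 88.8 ± 0.098 CPM in anestrus, were 1.07-fold apart, with a log2 fold change of 0.10 ± 0.16. PTCH1 had the most reads of the 9 genes, from 1266 to 2377 counts per pool. Its level was therefore measured with small counting error, and the 95% exact Poisson intervals ran from 89.8 to 97.4 CPM in follicular pool 1 and from 83.9 to 93.8 CPM in anestrus pool 1. Intervals of this kind cover counting error only.

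Because a ratio of 2 genes within a library does not depend on how the libraries are scaled, the counts of SHH, HHIP and PTCH1 were also set against each other. The ratio of SHH counts to HHIP counts was 0.819 and 0.905 in follicular and 3.70 and 3.44 in anestrus pools. Against PTCH1, SHH counts gave 0.273 and 0.240 in follicular and 0.660 and 0.627 in anestrus pools. HHIP counts against PTCH1 gave 0.333 and 0.265 in follicular and 0.179 and 0.182 in anestrus pools. The groups did not overlap in any of these ratios. With SHH lower and HHIP and PTCH1 higher in both follicular pools, this was fixed beforehand for the ratios of SHH. The ratio of GLI1 to PTCH1 did overlap, at 0.0328 and 0.0336 in follicular and 0.0403 and 0.0262 in anestrus pools. That of CDON to BOC overlapped too, at 1.10 and 1.63 in follicular and 1.38 and 1.77 in anestrus pools. These ratios are not corrected for transcript length and say nothing of which gene is expressed more.

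The coreceptors CDON and BOC are related cell-surface proteins that bind Hedgehog ligands and promote signalling. CDON had 26.3 and 27.5 CPM (follicular) against 35.1 and 41.8 CPM (anestrus). Both follicular pools were below both anestrus pools, with a log2 fold change of -0.51 ± 0.21, which was -0.34 without anestrus pool 2. BOC had 23.9 and 16.9 CPM in the follicular pools, against 25.4 and 23.7 CPM in the anestrus pools, so the groups overlapped. The follicular pools of BOC differed from each other by 1.42-fold, and its log2 fold change of -0.26 ± 0.25 was -0.52 without follicular pool 1 and -0.03 without follicular pool 2. SMO, the membrane protein that carries the signal to the GLI factors, also overlapped, at 22.0 and 18.5 CPM in follicular and 25.8 and 21.8 CPM in anestrus pools (log2 fold change -0.23 ± 0.24).

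None of the 3 GLI transcription factors was called. GLI1, an activator whose transcription is the usual readout of the pathway, was counted 78 and 56 times in follicular pools 1 and 2, against 51 and 42 times in the 2 anestrus pools. The follicular pools held 3.07 and 3.25 CPM and the anestrus pools 3.58 and 2.33 CPM, so the anestrus pools lay on either side of the follicular ones. The log2 fold change was 0.10 ± 0.41, with values of 0.44 and -0.13 when anestrus pool 1 or anestrus pool 2 was left out. With so few reads the 95% exact Poisson interval of anestrus pool 2 ran from 1.68 to 3.15 CPM and that of follicular pool 1 from 2.43 to 3.83 CPM, and these intervals overlapped.

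GLI2, the main activator early in the response, had the fewest reads, with 26 and 16 counts in follicular and 15 and 35 counts in anestrus pools. It was at 1.02 and 0.93 CPM (follicular) against 1.05 and 1.94 CPM (anestrus), and its log2 fold change of -0.62 ± 0.55 was -0.06 without anestrus pool 2. GLI3, which acts mostly as a repressor when no ligand is present, had 21.2 and 22.0 CPM in the follicular pools, against 18.9 and 26.7 CPM in the anestrus pools. Its groups overlapped, and its log2 fold change of -0.08 ± 0.25 became 0.23 without anestrus pool 2. For GLI1, GLI2 and GLI3 the 2 anestrus pools differed by 1.53-fold, 1.85-fold and 1.41-fold, more than the means of the 2 groups did.

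**Figure D2:**
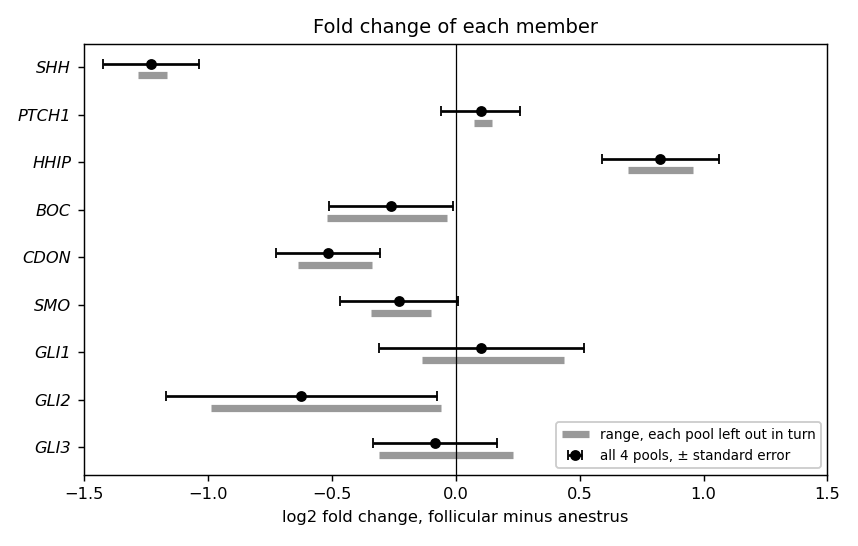
Log2 fold change of each gene, follicular minus anestrus (horizontal axis), with points and bars for all 4 pools ± standard error and grey bars for the range when each pool is left out in turn. The grey bars of SHH (-1.28 to -1.16) and HHIP (0.70 to 0.96) do not reach 0. Those of PTCH1, SMO, BOC, CDON and GLI2 do not reach it either, and those of GLI1 and GLI3 cross it. Where the groups do not overlap, leaving out a pool can hardly change the sign.

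Over the 9 genes, 6 had a negative and 3 a positive log2 fold change, with a median of -0.23, beside a median of -0.000672 and 49.9% positive values over all genes tested. The order of the 9 by log2 fold change, from lowest to highest, was SHH, GLI2, CDON, BOC, SMO, GLI3, PTCH1, GLI1 and HHIP. Each gene differed from the next in this order by less than the sum of their standard errors, except GLI1 from HHIP, which were 0.72 apart where the sum was 0.65. This sum is wider than the standard error of a difference, so genes next to each other in the order are not shown to be alike.

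The other genes of the pathway, 54 list entries for ligands and their release, reception and transduction, were represented by 51 genes in the table, of which 49 were tested. None was called in edgeR's quasi-likelihood test, in limma-voom or in the DESeq2 Wald test, and at an unadjusted p under 0.05 there were 4 of 49, beside 8.55% of all genes. Of the 49, 32 had a positive and 17 a negative log2 fold change, with a median of 0.05 and a range from -0.68 to 0.88. The groups did not overlap for 17 of them, with 8 higher and 9 lower in the follicular phase, beside 38.3% of all genes.

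Among the other ligands, IHH (Indian hedgehog) was at 0 to 4 counts per pool and was not tested. DHH (Desert hedgehog) had few reads, 11 to 25 counts per pool, at 0.98 and 1.45 CPM in follicular and 0.98 and 0.61 CPM in anestrus pools. HHAT, the enzyme that attaches palmitate to the ligand, had a log2 fold change of -0.27 ± 0.41. DISP1, the transporter that releases the lipid-modified ligand from the producing cell, had -0.16 ± 0.24, and SCUBE2, a secreted protein that takes the ligand up from it, had -0.06 ± 0.24. SCUBE2 was at 18.7 and 17.5 CPM (follicular) against 18.5 and 19.3 CPM (anestrus), and the groups overlapped. Adjusted p in edgeR's test was 0.857 for DHH and 0.923 to 0.977 for HHAT, DISP1 and SCUBE2.

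On the receiving side, GAS1, a membrane-anchored coreceptor, had 44.5 and 40.3 CPM in the follicular pools, against 58.1 and 55.1 CPM in the anestrus pools. Its log2 fold change of -0.42 ± 0.18 did not pass (adjusted p = 0.571, edgeR), although, like CDON, it was lower in both follicular pools. LRP2, an endocytic receptor that binds SHH, had a log2 fold change of 0.17 ± 0.45 and GPR37L1, a receptor of astrocytes, 0.61 ± 0.55. The adjusted p was 0.961 for LRP2 and 0.851 for GPR37L1 (edgeR). GPR37L1 varied within groups, at 12.1 and 6.97 CPM in follicular and 9.81 and 2.83 CPM in anestrus pools, and it passed without anestrus pool 1 (log2 fold change 1.755, adjusted p = 0.00249, edgeR), where that group has no spread of its own. GPC3, a glypican that competes with PTCH1 for ligand in the mouse, is named after its values were seen as the lowest of the 49. It was at 53.9 and 86.6 CPM (follicular) against 110 and 116 CPM (anestrus) (log2 fold change -0.68 ± 0.22, adjusted p = 0.387, edgeR), and it passed without a count filter (adjusted p = 0.0415) and without follicular pool 2 (0.0475) or anestrus pool 1 (0.00877).

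Of the genes downstream of SMO, SUFU, which holds GLI proteins in check, had a log2 fold change of -0.01 ± 0.21, and KIF7, a kinesin that organises GLI proteins at the tip of the cilium, 0.15 ± 0.19. EVC, a ciliary partner of SMO, had 0.17 ± 0.23. The adjusted p of SUFU, KIF7 and EVC was 0.916 to 0.992 (edgeR). GPR161, a ciliary receptor that raises cAMP and so favours GLI repressors, had 9.37 and 11.5 CPM in the follicular pools, against 3.36 and 7.88 CPM in the anestrus pools. Its log2 fold change of 0.88 ± 0.40 was the highest of the 49 and did not pass (adjusted p = 0.596, edgeR). The log2 fold change was 0.40 when anestrus pool 1 was left out, and with anestrus pool 2 left out it was 1.67 and passed (adjusted p = 0.00515).

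**Figure D3:**
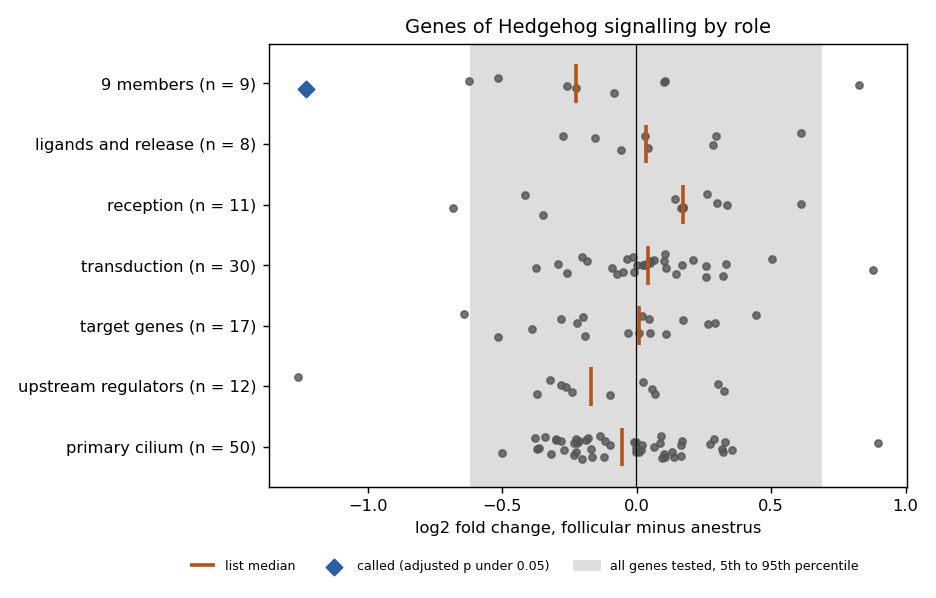
Log2 fold change, follicular minus anestrus (horizontal axis), of each tested gene (point) by role in Hedgehog signalling (rows); orange lines are list medians, the grey band holds the 5th to 95th percentile of all genes tested (-0.62 to 0.68), and the diamond is SHH, the 1 called gene. SHH and HHIP lie outside the band on opposite sides, and GLI2 lies at its edge. Of the other lists, GPR161, KIF17, RAX, GPC3 and FOXL1 also lie outside it, none of them called. The medians of the other lists lie between -0.17 and 0.17.

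Of 18 genes known as targets of Hedgehog signalling in other tissues and species, 17 were tested. In edgeR, limma-voom and the DESeq2 Wald test 0 of them were called, beside 0.203% of all genes in edgeR, and 1 had an unadjusted p under 0.05, beside 8.55% of all genes. There were 9 with a positive and 8 with a negative log2 fold change, and the median was 0.01. NKX2-2, a homeobox gene induced by SHH in the ventral neural tube, was the highest, at 0.44 ± 0.38, and FOXL1, a forkhead gene, the lowest, at -0.64 ± 0.39. FOXA2, a floor plate gene induced by SHH in the embryo and named after its values were seen, had 0 counts in every pool, which allows a level of up to 0.118 to 0.21 CPM depending on the library (3 counts, counting error only). CCND1 and CCND2, cyclins that Hedgehog signalling raises in mouse cerebellar precursors and named here after their values were seen, had log2 fold changes of 0.02 ± 0.16 and 0.05 ± 0.15.

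Of 13 genes that act upstream of SHH or mark the hypothalamic midline, 12 were tested and 0 called in edgeR, limma-voom and the DESeq2 Wald test (0 also at an unadjusted p under 0.05, beside 8.55% of all genes), with a median log2 fold change of -0.17. SOX2, which is needed for SHH expression in the hypothalamus of the mouse embryo, was the highest, at 0.33 ± 0.33. RAX, a homeobox gene of tanycytes, the ependymal cells that line the floor of the third ventricle, was the lowest, at -1.26 ± 0.88. In both groups RAX was higher in pool 1 than in pool 2, at 1.10 and 0.23 CPM in follicular and 2.87 and 0.56 CPM in anestrus pools, and its log2 fold change was 0.33 without anestrus pool 1. Of 51 entries for genes of the primary cilium, 50 were tested and 0 called by any of these tools (2 at an unadjusted p under 0.05 in edgeR, beside 8.55% of all genes), with a median of -0.05. The highest was the ciliary motor gene KIF17, at 0.90 ± 0.49, and the lowest was IFT20, a component of intraflagellar transport, at -0.50 ± 0.20.

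The genes next to each member were read from the gene order of the ARS1.2 RefSeq assembly, with 3 protein-coding genes on each side. Of 54 such neighbours, 48 were tested and 0 called in edgeR, beside 0.203% of all genes, and 4 had an unadjusted p under 0.05, beside 8.55%, with log2 fold changes from -0.76 to 0.72. The 4 tested neighbours of SHH ran from 0.07 to 0.41, and included LMBR1, named after its values were seen, the gene that in mammals houses the distant limb enhancer of SHH (0.13 ± 0.16). The 5 tested neighbours of HHIP ran from -0.13 to 0.42. The 6 tested neighbours of CDON ran from -0.71 to 0.14, 4 of them negative like CDON and 2 with an unadjusted p under 0.05. The lowest, FAM118B, named after its values were seen, was at 29.9 and 31.6 CPM (follicular) against 49.7 and 50.9 CPM (anestrus), a log2 fold change of -0.71 ± 0.19, and it was called without anestrus pool 1 (adjusted p = 0.0415, edgeR). In the same table HHIP overlapped the gene LOC108637865, which had 1 to 6 counts per pool, and CDON overlapped the long noncoding RNA LOC102188744, which had 32 to 37 counts per pool. No other member overlapped an annotated gene.

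Marker genes of the cell types in the dissected block also differed between the pools, and in bulk RNA fewer cells of a type and less RNA per cell cannot be told apart. Pituitary and pars tuberalis markers summed to 7263 and 5482 CPM (follicular) against 15798.5 and 12066.6 CPM (anestrus). Most of each sum was CGA, at 5232 and 4295 CPM in follicular and 13142 and 10308.6 CPM in anestrus pools. Without CGA the groups overlapped, with sums of 2031 and 1187 CPM (follicular) against 2656 and 1758 CPM (anestrus). Without TSHB as well the groups again overlapped, at 2026 and 1180 CPM (follicular) against 1456 and 947 CPM (anestrus). The means were then 1603 CPM in follicular and 1202 CPM in anestrus pools, which is not the direction of most single markers. Of 11 tested, 2 were called, beside 0.203% of all genes, both lower in the follicular phase. These were TSHB and CGA, the subunits of thyrotropin (log2 fold changes -7.45 ± 0.30 and -1.30 ± 0.18). Log2 fold changes were negative for 9 of the 11 (median -0.93), so the higher follicular mean rested on the other 2. The 2 positive ones, named after their values were seen, were CHGA, the granin of secretory granules that neurons also express, at 0.98 ± 0.33 with both follicular pools above both anestrus pools, and LHB, a subunit of luteinizing hormone, at 1.48 ± 0.74 with overlapping groups. CHGA was called in 6 of 12 alternatives, the DESeq2 Wald test among them, and LHB in 1, without follicular pool 2. Meningeal markers summed to 1150 and 1291 CPM in the follicular pools, against 1738 and 1669 CPM in the anestrus pools, with 9 of 10 negative and none called. Tanycyte markers summed to 1566 and 1509 CPM in follicular and 1916 and 1806 CPM in anestrus pools. Of 11 tested tanycyte markers 8 were negative, and 1 was called, DIO2, the deiodinase that activates thyroid hormone (-1.20 ± 0.17). The tanycyte marker GPR50, named after its values were seen, had 0 counts in 3 of the 4 pools. The part of these markers in the values of SHH and CDON was not tested.

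Astrocyte, oligodendrocyte and neuron markers lay in the direction of HHIP. Astrocyte markers summed to 12578.8 and 13348.7 CPM (follicular) against 8156 and 7994 CPM (anestrus), and all 11 tested had a positive log2 fold change. The 1 called was GFAP, the intermediate filament of astrocytes (1.01 ± 0.15). Oligodendrocyte markers summed to 3689 and 4984 CPM in the follicular pools, against 3134 and 2027 CPM in the anestrus pools, with 12 of 12 positive and none called, and neuron markers to 5907 and 6520 CPM in follicular and 5360 and 4816 CPM in anestrus pools, with 10 of 10 positive and none called. Endothelial markers, at 357 and 353 CPM (follicular) against 306 and 349 CPM (anestrus), and mural cell markers, at 430 and 484 CPM in the follicular pools, against 417 and 449 CPM in the anestrus pools, had median log2 fold changes of 0.17 and 0.10. Ependymal markers were positive for 10 of 10 tested, oligodendrocyte precursor markers for 7 of 8 and microglial markers for 10 of 11, with medians of 0.48, 0.60 and 0.22 and none called. Without follicular pool 1, CGA, DIO2 and GFAP were no longer called, at log2 fold changes of -1.43, -1.25 and 1.03. For the lists with 0 called in edgeR, the count at an unadjusted p under 0.05, beside 8.55% of all genes, was 6 of 10 for meninges, 10 of 12 for oligodendrocytes, 4 of 8 for their precursors, 3 of 10 for neurons, 1 of 11 for microglia and 0 for ependyma, endothelium and mural cells. For the lists with calls in edgeR, where 0.203% of all genes were called, it was 5 of 11 for pituitary, 7 of 11 for astrocytes and 1 of 11 for tanycytes. The lists were chosen with earlier results of these data known, so nothing is read from these counts. The DESeq2 Wald test called 1, 2 and 1 of the meningeal, oligodendrocyte and precursor markers and 0 of the other 5 lists, and limma-voom called 0 in all 8. Of the lists with calls, the DESeq2 Wald test called 4 pituitary, 2 astrocyte and 1 tanycyte marker, and limma-voom 2, 1 and 1. The part of these markers in the value of HHIP was not tested. Neuron markers were present, and so was the hypothalamic homeobox gene NKX2-1, named after its values were seen. NKX2-1 was at 20.2 and 26.0 CPM in follicular and 33.6 and 21.9 CPM in anestrus pools.

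**Figure D4:**
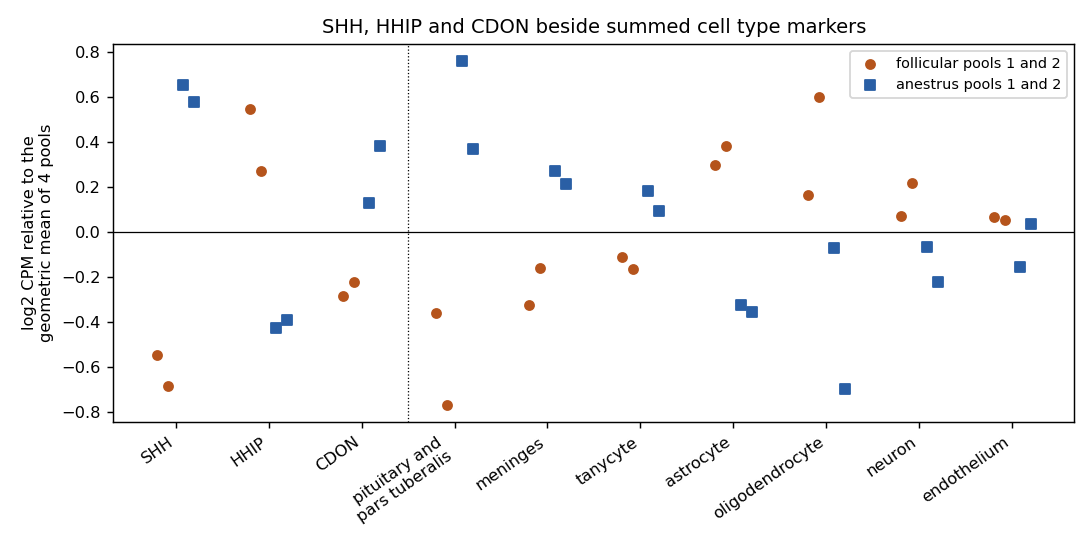
Log2 CPM relative to the geometric mean of the 4 pools (vertical axis) for SHH, HHIP and CDON, left of the dotted line, and for the summed CPM of cell type marker lists, right of it; circles are follicular pools and squares anestrus pools. SHH and CDON share the direction of the meningeal and tanycyte sums and of the pituitary sum, which is mostly CGA, and HHIP that of the astrocyte, oligodendrocyte and neuron sums.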

How the data were processed

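Per the labels' protocols, TriReagent was used for RNA extraction and the Truseq stranded mRNA kit for the libraries. The authors deposited raw read counts per gene. Per the submitters' processing notes, demultiplexing used bcl2fastq 2.20, quality control FastQC, alignment TopHat2 2.1.1 with Bowtie2 2.3.5.1, file handling SAMtools 1.9, and counting was done by featureCounts 2.0.0. The sources used here give no build, annotation or strand setting, so no coordinates are printed. The 4 totals ranged over 14553821 to 25292678 counts. Pools are numbered by library name, because the titles number the anestrus pools the other way round.

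Genes were kept with filterByExpr (minimum count 10, minimum total 15), scaled by TMM (factors 0.981 to 1.01) and tested by edgeR 4.0.16 under R 4.3.3 (glmQLFit with robust estimation, glmQLFTest), follicular minus anestrus, with 2 residual degrees of freedom. Benjamini-Hochberg adjustment ran over all 16756 genes, and called means an adjusted p under 0.05. P-values measure the spread between pools, not goats. The spread used for a gene was estimated in part from the other genes tested. Across genes, log2 CPM (prior count 2) correlated at 0.9821 for the follicular pools, at 0.9714 for the anestrus pools and at 0.9672 to 0.9773 between groups. CPM are counts scaled to 1000000 of the TMM-adjusted total. Standard errors are the log2 fold change divided by the square root of the test's F. The steps were also run on simulated counts with known changes. This was a check of the code, and the power to detect changes of the size seen in the members is not reported here.

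The members and gene lists were chosen with earlier results of these data known. Of 266 list entries 257 matched a row, 2 of them through the RefSeq symbol of a gene identifier (ARS1.2). Named genes were the 9 members, 13 further pathway genes, called genes of the lists, and the highest and lowest gene of the target, regulator and cilium lists with a mean of at least 1 CPM. Of these, 1 gene is not reported here. Others are named as chosen after their values were seen. Alternatives used limma 3.58.1 and DESeq2 1.42.0.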

Additional observations from a re-analysis of the deposited data

How the results depend on the processing

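Over 12 alternatives, the log2 fold changes of SHH (-1.28 to -1.16), HHIP (0.70 to 0.96), CDON (-0.64 to -0.34), PTCH1, SMO, BOC and GLI2 kept their sign, and those of GLI1 (-0.13 to 0.44) and GLI3 (-0.31 to 0.23) did not. SHH was called in 10 of the 12, all but those without a follicular pool. The 34 calls over all genes became 300 with no count filter, 143 in the DESeq2 Wald test and 90 with a replicate block, and 4 to 810 when a pool was left out (4 without follicular pool 1, 95 without follicular pool 2, 810 without anestrus pool 1, 583 without anestrus pool 2). Higher and lower calls, 2 and 32, became 127 and 173 with no filter, 43 and 100 in DESeq2, 20 and 70 with the block, and, in the order above, 0 and 4, 33 and 62, 541 and 269, and 301 and 282 with a pool left out. A lone pool is then assumed to vary like the other group. Calls among the 9 genes were 0 to 1 and among the other pathway genes 0 to 3 when a pool was left out, and 1 other pathway gene was called with no count filter. The cause of these changes was not tested. Library numbers gave a correlation of deviations of 0.26 between same-numbered pools across genes, from a single pair of differences, and nothing in the labels pairs them. With the replicate block, SHH remained the 1 call among the 9 and no other pathway gene was called.

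Of the named genes outside the 9 for which alternatives were run, SUFU, SCUBE2, RAX, CCND1 and NKX2-1, none of them called, changed sign. SUFU was 0.0027 with DESeq2 size factors, 0.0055 with library totals, 0.0051 with the 1 CPM filter, 0.0029 in DESeq2 and 0.00067 in limma-voom. With a pool left out SUFU ran from -0.078 to 0.099, SCUBE2 from -0.092 to 0.016, RAX from -2.79 to 0.33, CCND1 from -0.082 to 0.13 and NKX2-1 from -0.50 to 0.073. Depth limits GLI1 and GLI2, with 42 to 78 and 15 to 35 counts per pool.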
